A study of Rattus norvegicus with 20 samples.

Results

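Acetylation of histone H3 (H3ac) was set against dimethylation of lysine 27 (K27me2) across the genes of the left ventricle in 1 normal and 1 failed rat heart. The comparison used 4 of the 20 arrays of the study, chosen by their labels alone: the chromatin immunoprecipitates (ChIP) obtained with antibodies to each mark in each heart. The animals were Dahl rats, lines selected for how blood pressure reacts to salt in the diet, aged 19 weeks in the labels of these 4 arrays. Congestive heart failure is the labels' term for the failed heart; of its samples, the one for mRNA alone is labelled with a high-sodium diet. An experiment used 1 left ventricle specimen, and the sources used here do not give whether different assays of a heart came from the same one. The labels do not name the histone that carries lysine 27. The other 16 arrays hold mRNA, genomic DNA from before immunoprecipitation (pre-IP) and the other 6 marks of the same hearts.

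Acetyl groups are placed on histone H3 by enzymes such as p300 and CBP and are taken off by histone deacetylases. Acetylated H3 is found at active promoters and enhancers, and over the first part of transcribed genes. Dimethylation of H3 at lysine 27 is made by Polycomb repressive complex 2, whose catalytic subunits are Ezh1 and Ezh2 and whose partners include Eed and Suz12, and it is removed by Kdm6a and Kdm6b. This mark covers much of the chromatin outside active genes. The difference of both marks at a gene therefore places it between chromatin bearing an activity mark and chromatin bearing a mark of Polycomb activity. The arrays were designed for transcripts, so a value describes DNA under probes for a gene's RNA and not its promoter.

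Each array was scaled to a median of 100, values under 10 were set to 10, and the difference was log2 H3ac minus log2 K27me2 within a heart, so that no pre-IP value enters it. Values are given in the order normal heart, failed heart throughout, and levels without a log are on this scale with the array median at 100. A positive difference means that H3ac was higher relative to its array than K27me2 was. Of 14217 genes with 1 probe set each, the difference had a median of -0.016 (normal) and -0.0028 (failed). It was above 0 in both hearts at 5315 genes and below 0 in both at 5451. A gene was tested where its mean level over the 4 arrays reached the median over all probe sets, which held for 7083 genes, and a gene was called at an adjusted p under 0.05 in limma with the heart as a block. The design has 1 residual degree of freedom, so the fit gave every gene the spread expected at its level. That spread is the one between a normal and a failed heart, and no 2 arrays repeat the same mark in the same heart. Each SE given below with n = 2 hearts comes from this fitted spread and not from the gene's own values.

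H3ac was higher than K27me2 at 2393 genes (33.8% of those tested) and K27me2 was higher at 777 genes (11.0%). These are called H3ac-high and K27me2-high genes. A difference of at least 2-fold on the same side in both hearts was reached by 1544 genes for H3ac (21.8%) and by 342 for K27me2 (4.83%). Only 6 tested genes (0.0847%) were at least 2-fold apart on opposite sides in the hearts. Ranks of the difference were shared between the hearts, with Spearman's rho across genes of 0.72 over 14217 genes and 0.78 over the 7083 tested, described without a p because genes are not independent and share probes and amplification. The split between the classes depended on the scaling: 75.5% of the calls were H3ac-high with array medians at 100, 46.4% with the values as deposited and 48.5% after quantile normalization. The deposited scaling moved the median difference of all genes by -0.47 and -0.50. All 777 K27me2-high genes were also called under both other scalings, and 1189 of the 2393 H3ac-high genes were. Both scalings moved the tested genes toward K27me2, from medians of 0.35 and 0.39 to -0.12 and -0.12 (deposited) and -0.033 and -0.082 (quantile). Keeping the K27me2-high calls was thus favoured beforehand and does not show that class to be the firmer one. The deposited scaling called 1462 genes H3ac-high and 1692 K27me2-high of 7083 tested, and quantile normalization 1414 and 1503 of 7066. The level filter moved the split too: with array medians at 100, tested genes had medians of 0.35 and 0.39. Without the filter 2639 genes were H3ac-high and 2032 K27me2-high, so that 56.5% of the calls were H3ac-high.

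**Figure D1:**
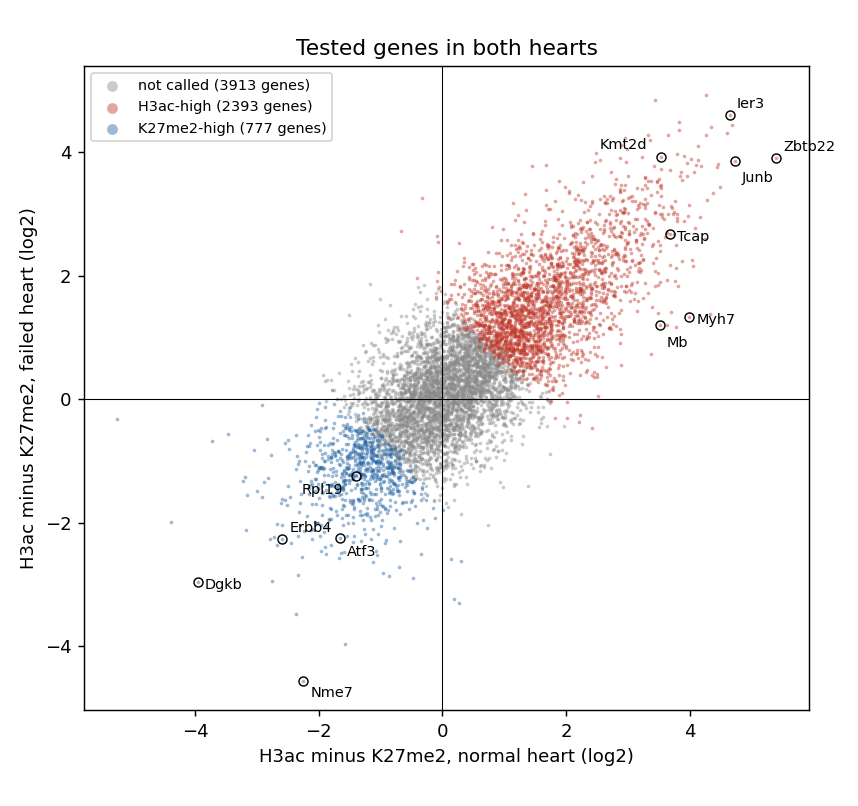
Difference of H3ac minus K27me2 (log2) in the normal heart (horizontal) and the failed heart (vertical) for the 7083 tested genes, 1 point a gene, coloured by call. The H3ac-high genes fill the upper right and the K27me2-high genes the lower left; Zbtb22, Ier3 and Junb lie at the upper end and Dgkb and Nme7 at the lower end, while Myh7 and Mb lie below the diagonal.

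The arrays differ in ways that bear on this difference. The values of the H3ac arrays were spread more widely, with a log2 interquartile range of 2.14 and 2.34, than those of the K27me2 arrays, with 1.55 and 1.59. The mean difference rose with the mean level of the 4 arrays (rho across genes 0.43) and with the pre-IP level (rho 0.35). When each heart's difference was centred on genes of like pre-IP level, an alternative added after the data were seen, 1741 genes were H3ac-high and 1268 K27me2-high. Of the cell types, cardiomyocyte markers had a median mRNA percentile of 99.4 and 99.7 among all genes, endothelial markers 90.6 and 89.9, fibroblast markers 97.8 and 98.2, and liver genes 14.9 and 10.01. The labels call the mRNA samples left ventricular myocytes, while mRNA of other cell types was measured in them too. In such bulk samples, fewer cells of a type and less mark per cell cannot be told apart.

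The 12 H3ac-high genes with the largest mean difference in both hearts included 3 of the stress response list (Ier3, Zfp36 and Junb), the ATP synthase gene Atp5mg and the splicing gene Srsf7. The gene with the largest difference was Zbtb22 (NCBI gene 309630), a protein with zinc fingers and a BTB domain. Its H3ac level was 1626 and 1907 and its K27me2 level 38.4 and 128, a log2 difference of 4.65 ± 0.33 (SE, n = 2 hearts; limma adjusted p = 4.37e-42). Taken by heart, the difference was 5.40 and 3.90, further apart than the fitted SE shows. Both H3ac values lay far above both K27me2 values. Ier3 (NCBI gene 294235), an immediate early response gene, had H3ac at 2434 and 2529 against K27me2 at 97.2 and 104. Midn, which encodes midnolin, a protein that brings nuclear proteins to the proteasome, had H3ac at 1417 and 1260.3 against 73.8 and 41.7 for K27me2. At all 3 genes the marks lay further apart than the hearts did.

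Atp5mg encodes subunit g of the mitochondrial ATP synthase. Its H3ac level was 2658 and 2239 against 104 and 103 for K27me2, a difference of 4.56 ± 0.31 (SE, n = 2 hearts; limma adjusted p = 9.89e-44). Stk11, the kinase LKB1 that activates AMP-activated kinase, had differences of 4.61 and 4.31, with 4.18 and 4.80 at its second probe set by mRNA level and 4.99 and 4.64 at the last one. All 3 probe sets of Stk11 lay above 0 in both hearts. Zfp36, a protein that binds AU-rich messages and speeds their decay, had H3ac at 997 and 597 and K27me2 at 49.1 and 28.2. Junb, a subunit of the AP-1 transcription factor, had H3ac at 1867 and 1098 and K27me2 at 70.4 and 75.4. Srsf7, a splicing factor, had differences of 3.82 and 4.48 although its mRNA level was only 3.44 and 21.2. The other members of the 12 were Atp6v0a1, a subunit of the proton pump of acidic organelles, Irf2bp2, a corepressor, Bad, a promoter of cell death, and Camta2, a calmodulin-binding transcription activator; their mean differences ran from 4.12 to 4.27.

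The 12 K27me2-high genes with the largest differences included Dgkb, Prkca, Pdgfc and Erbb4, which act in signalling, and Nme7 and Cfap90, linked to cilia. At Dgkb (NCBI gene 54248), a diacylglycerol kinase best known from the brain, K27me2 was 435 and 258 and H3ac 28.0 and 33.4, a log2 difference of -3.46 ± 0.44 (SE, n = 2 hearts; limma adjusted p = 9.09e-14). Nme7 (NCBI gene 171566), a nucleoside diphosphate kinase family member of centrosomes and cilia, had K27me2 at 456 and 438 and H3ac at 95.8 and 18.6. Its K27me2 values were alike in the hearts while H3ac was lower in the failed heart. Prkca, which encodes protein kinase C alpha, had K27me2 at 319 and 234 against H3ac at 46.9 and 30.6. Erbb4, a receptor for neuregulins, had K27me2 at 320.1 and 230.1 against H3ac at 53.0 and 48.1. Pdgfc, a platelet-derived growth factor ligand, had differences of -2.73 and -2.22, and Cd79b, a signalling chain of the B cell receptor, of -1.58 and -3.97. The other members were Cfap90, a cilium and flagellum protein, Poteml2, Parpbp, Kel, Grpca and Slc12a8. At Kel, the second probe set read -2.14 and -1.86, on the same side as the first.

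Genes of contraction stood among those with more H3ac than K27me2. Of 21 measured genes of the adult sarcomere, 17 were tested. Of these 13 were H3ac-high and 0 were K27me2-high, beside 33.8% and 11.0% of all tested genes. The median difference over all 21 was 1.44 and 1.33. Tcap, the titin cap of the Z-disc, had H3ac at 412 and 470.4 and K27me2 at 32.1 and 73.7, a difference of 3.18 ± 0.38 (SE, n = 2 hearts; limma adjusted p = 2.93e-15). Myl3, the ventricular essential light chain, had H3ac at 486 and 465 and K27me2 at 53.5 and 101. Both hearts lay on the same side at these genes, with the larger difference in the normal heart. Tnnt2, cardiac troponin T, had differences of 2.37 and 1.08, and its second probe set read 3.81 and 1.92. Not every sarcomere gene followed: Ttn, the giant spring protein titin, had differences of -0.20 and -1.14 and Myot, myotilin, of -1.48 and -0.64, neither reaching the level needed for the test. The list had a median log2 pre-IP level of 7.90 against 6.61 for all genes, and relative to genes of like pre-IP level its median, less that of all genes, fell from 1.54 to 0.29. Under quantile normalization 11 of its genes were H3ac-high and 2 K27me2-high of 17 tested, beside 1414 and 1503 of all 7066.

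Calcium handling genes gave 6 H3ac-high and 0 K27me2-high of 9 tested, beside 33.8% and 11.0% of all tested genes. Their medians were 0.58 and 0.49 over 14 measured. After quantile normalization 2 of 8 were H3ac-high and 0 K27me2-high, beside 1414 and 1503 of all 7066 tested genes. Jph2, junctophilin, which ties the cell membrane to the calcium store, had H3ac at 393 and 263 and K27me2 at 88.3 and 66.5. Hrc, a calcium-binding protein of the store, had differences of 1.46 and 2.68, and Pln, phospholamban, the inhibitor of the calcium pump, of 1.87 and 1.27. Pln was H3ac-high here (limma adjusted p = 8.50e-06) and not after quantile normalization (limma adjusted p = 0.0813). Ryr2, the calcium release channel, was called with differences of 0.89 and 0.92 (limma adjusted p = 0.034), but its mean turned to -0.49 when centred on genes of like pre-IP level. Its second probe set read 0.40 and -0.38. Slc8a1, the sodium-calcium exchanger, and Camk2d, the calmodulin kinase, were not tested; Slc8a1 had differences of -0.96 and -1.04, and Camk2d of -0.73 and -1.79.

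Cardiac transcription factors gave 6 H3ac-high genes and 1 K27me2-high gene of 7 tested, beside 33.8% and 11.0% of all tested genes. Their median was 1.29 in each heart over 14 measured. After quantile normalization the counts were 3 and 1 of 6, beside 1414 and 1503 of all 7066 tested genes. Hand2 had H3ac at 194 and 249.8 and K27me2 at 51.8 and 44.3, and Irx4, chosen after its values were seen, had differences of 1.88 and 1.63. The K27me2-high member was Mef2c, a regulator of muscle genes, with K27me2 at 523 and 198 and H3ac at 149 and 76.0 (limma adjusted p = 5.49e-05). Its second probe set read -0.33 and -1.14, on the same side, and its mRNA percentile was 93.3 and 94.0. Mef2d, of the same family, had differences of 1.75 and 2.90 at a level too low for the test. Gata4 had 1.12 and 1.29 and was not tested either, while its second probe set read 3.02 and 2.85.

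Genes of energy metabolism were unequal among themselves. The respiratory chain had 44 H3ac-high and 0 K27me2-high genes of 70 tested, beside 33.8% and 11.0% of all tested genes. Its medians were 1.19 and 1.05 over 79 measured. Ndufa11, an accessory subunit of complex I, had H3ac at 1292 and 3199 against K27me2 at 231 and 203; its lowest tested partner, Ndufb1, had -0.76 and -0.43 and was not called. After quantile normalization 35 genes of the chain were H3ac-high and 10 K27me2-high of 69 tested, beside 1414 and 1503 of all 7066. Genes of fatty acid oxidation gave 5 H3ac-high and 0 K27me2-high of 21 tested, a share below the 33.8% of all tested genes, with medians of 0.26 and -0.076 and a mean that turned negative after centring on pre-IP level. Cpt1b, the muscle carnitine palmitoyltransferase that admits fatty acids to mitochondria, had differences of 2.27 and 1.87, and Decr1 had -1.33 and -1.03. Glycolysis gave 6 H3ac-high and 2 K27me2-high genes of 10 tested, but 2 and 2 of 10 both with the deposited scaling and after quantile normalization. All tested genes gave 1462 and 1692 of 7083 with the deposited scaling. Pgam2, the muscle phosphoglycerate mutase, had H3ac at 1430.3 and 869 and K27me2 at 127 and 209.8, while Ldha, lactate dehydrogenase A, was K27me2-high with K27me2 at 532 and 456 and H3ac at 293 and 214. Eno1, the enolase of most tissues, was K27me2-high as well, with differences of -0.90 and -1.02. Processed copies of glycolytic genes such as Ldha and Eno1 occur in mammalian genomes, and the pre-IP level was 433 and 386 at Ldha. At Eno1 it was 1039 and 1122, and the part of such copies was not tested.

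Stress response and immediate early genes had the highest medians of the 37 lists in the failed heart and over both hearts together, 1.90 and 2.01 over 24 measured genes. Of 21 tested, 15 were H3ac-high and 1 was K27me2-high, beside 33.8% and 11.0% of all tested genes. The counts of the list were the same under the deposited scaling and after quantile normalization. Those of all tested genes were then 1462 and 1692 of 7083, and 1414 and 1503 of 7066, respectively. Several of the genes had little or moderate mRNA. Junb had an mRNA percentile of 30.8 and 56.8 with differences of 4.73 and 3.86. Ier3 had an mRNA percentile of 41.8 and 68.4 with differences of 4.65 and 4.60, and Zfp36 one of 49.7 and 43.6 with differences of 4.34 and 4.40. Dusp1, a phosphatase of stress kinases, and Jund, an AP-1 subunit, both chosen after their values were seen, were H3ac-high too. Dusp1 had differences of 4.28 and 3.23, with 4.08 and 4.26 at its second probe set, and Jund 2.72 and 3.68, with 4.10 and 4.06 there. The exception was Atf3, a stress-induced repressor, with K27me2 at 213 and 189 and H3ac at 67.7 and 40.0 (limma adjusted p = 4.66e-05). Fos did not reach the level for the test, with 0.23 and 0.30, and Egr1 and Egr3 were not called.

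Among genes of the protein and RNA machinery, splicing and RNA processing gave 14 H3ac-high genes and 1 K27me2-high gene of 34 tested, and mitochondrial ribosomal proteins 27 and 3 of 55. After quantile normalization these counts were 11 and 5 of 34, and 20 and 8 of 54. Of all tested genes 33.8% were H3ac-high and 11.0% K27me2-high, and after quantile normalization 1414 and 1503 of 7066 were. Sf3b5, a splicing factor subunit, had H3ac at 1751 and 1996 and K27me2 at 179.8 and 166, and Mrps34, of the small mitochondrial ribosomal subunit, had H3ac at 1831 and 1497 and K27me2 at 146 and 188. Heat shock proteins and chaperones gave 21 and 2 of 40 (9 and 5 of 37 after quantile normalization), led by Hspb2, a small heat shock protein of muscle, with differences of 3.79 and 2.996. Cytosolic ribosomal protein genes had medians of 0.51 and 0.46, with 18 H3ac-high and 5 K27me2-high of 46 tested, but the direction of this list turned with the scaling. After quantile normalization 2 were H3ac-high and 21 K27me2-high, and with the deposited scaling 3 and 8. Rpl37a went from 1.42 ± 0.29 (SE, n = 2 hearts) to -0.12 after quantile normalization. The list had the highest pre-IP level of those described, a median log2 of 9.75, and ribosomal protein genes have many processed copies; no direction is drawn for it.

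The histone modifying enzymes, which include those that write and erase both marks, gave 9 H3ac-high genes and 1 K27me2-high gene of 17 tested. Of all tested genes 33.8% and 11.0% were called. The counts of the list went to 6 and 3 of 17 with the deposited scaling, and to 6 and 3 of 16 after quantile normalization. Those of all tested genes went to 1462 and 1692 of 7083, and to 1414 and 1503 of 7066. The medians of the list were 0.23 and 0.56 over 30 measured. Ezh1, a catalytic subunit of Polycomb repressive complex 2, had H3ac at 1199 and 565 and K27me2 at 112 and 98.9 (limma adjusted p = 4.12e-17), and its second probe set read 1.46 and 1.69. Kmt2d, a methyltransferase for lysine 4, had H3ac at 459 and 487 and K27me2 at 39.4 and 32.0. Its differences were 3.54 and 3.93 there, but only 0.25 and 1.31 at its second probe set. Kdm6b, which removes lysine 27 methylation, had differences of 2.16 and 1.77, and Kat2b, an acetyltransferase, was the K27me2-high member with -1.35 and -1.64; both were chosen after their values were seen. Ezh2 had -0.44 and -0.16 and was not tested, and Hdac1, a deacetylase, had 0.075 and 0.13 and was not called.

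**Figure D2:**
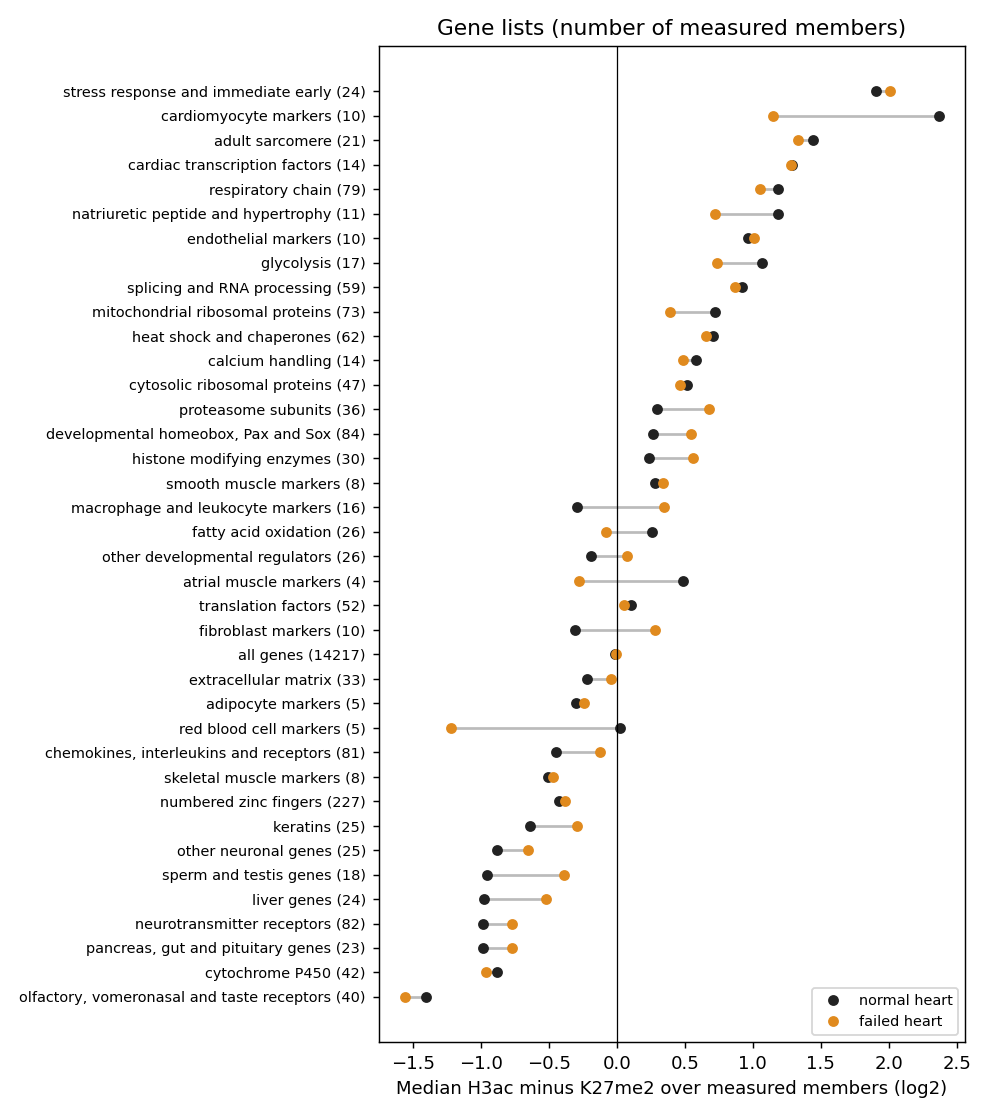
Median log2 difference of H3ac minus K27me2 over all measured members of each gene list in the normal heart (black) and the failed heart (orange), with the number of members in parentheses and a grey line joining the hearts. Stress response genes, cardiomyocyte markers and sarcomere genes lie above 1 in both hearts, and olfactory, vomeronasal and taste receptors lie at -1.40 and -1.55.

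Lists of genes used in other organs lay below 0. Olfactory, vomeronasal and taste receptors, the sensory receptor families, had medians of -1.40 and -1.55 over 40 measured genes, with 32 of 40 below 0 in both hearts and 1 above 0 in both. Tas2r123, a bitter taste receptor, had K27me2 at 161 and 96.8 and H3ac at 14.8 and 16.6, and Vom2r75, a vomeronasal receptor, had K27me2 at 221 and 121 and H3ac at 26.4 and 14.8. Only 4 of the 40 reached the level for the test, and 3 of these were K27me2-high. With a floor of 50 in place of 10 the median of this list, less that of all genes, went from -1.32 to -0.084, so the size of its difference rests on low levels.

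Neurotransmitter receptors had medians of -0.98 and -0.77, liver genes -0.97 and -0.52, cytochrome P450 genes -0.88 and -0.96, and genes of pancreas, gut and pituitary -0.98 and -0.77. The K27me2-high members numbered 1 of 23, 1 of 8, 3 of 11 and 1 of 9 tested, respectively, beside 11.0% of all tested genes. The H3ac-high members numbered 4, 0, 2 and 0, beside 33.8%. Tested neurotransmitter receptors thus held more H3ac-high than K27me2-high members at this scaling. After quantile normalization the K27me2-high counts were 5 of 24, 2 of 8, 7 of 13 and 5 of 9, beside 1503 of all 7066 tested genes. Neurotransmitter receptors and liver genes lay near that share of all tested genes. These medians rest on low levels in part: less that of all genes, the one of neurotransmitter receptors went from -0.82 to -0.21 with a floor of 50, that of P450 genes from -0.94 to -0.26, and that of pancreas, gut and pituitary genes from -0.88 to -0.57. Gabra4, a receptor subunit for GABA, had K27me2 at 174 and 95.0 and H3ac at 19.5 and 14.2. Cyp2c7, a liver enzyme, had K27me2 at 348 and 308 and H3ac at 45.4 and 18.4, and was not tested. Gad1, which makes GABA, was K27me2-high with -1.92 and -1.005 (limma adjusted p = 0.00279). Alb, serum albumin, had -1.23 and -0.43 and was not called (limma adjusted p = 0.0793). Some members stood on the other side: Cyp2s1 had H3ac at 503 and 1055 and K27me2 at 79.4 and 117, and Chrnd, a muscle acetylcholine receptor subunit, had differences of 2.40 and 1.53.

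Sperm and testis genes gave 4 K27me2-high genes and 1 H3ac-high gene of 11 tested, with Smcp, a protein of the sperm mitochondrial capsule, at -3.16 and -1.55; after quantile normalization 7 were K27me2-high and 0 H3ac-high. Other neuronal genes had medians of -0.88 and -0.65, with 1 gene called on each side of 6 tested. Keratins were split, with 2 K27me2-high, Krt4 at -1.95 and -1.71 and Krt18 at -1.43 and -1.74, and 3 H3ac-high of 12 tested, led by Krt1 at 2.76 and 2.22. Developmental homeobox, Pax and Sox genes had low mRNA but no shift below 0. Their median mRNA percentile was 15.6 and 16.2, near that of the liver genes, but their medians were 0.27 and 0.55, with 45 of 84 above 0 in both hearts and 13 below. Of 31 tested, 10 were H3ac-high, a share near the 33.8% of all tested genes, and 2 were K27me2-high. Sox12 had H3ac at 2008 and 2452 and K27me2 at 189 and 359.6, and Hoxb7 had differences of 2.52 and 3.89 without a test. Pax4, a factor of endocrine pancreas, was K27me2-high with -1.92 and -1.23, and Alx1 was not tested at -1.92 and -2.23. Numbered zinc finger genes, a large family of DNA-binding proteins, had medians of -0.42 and -0.38 over 227 measured, with 23 H3ac-high and 11 K27me2-high of 79 tested, beside 33.8% and 11.0% of all tested genes. The order of these counts turned to 13 and 20 of 77 after quantile normalization and to 14 and 27 of 79 with the deposited scaling, so no direction is drawn for the family. The order turned over all tested genes too, to 1414 and 1503 of 7066 and to 1462 and 1692 of 7083, respectively.

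Markers of the other cell types of the ventricle differed among themselves. Of all tested genes 33.8% were H3ac-high and 11.0% K27me2-high, the shares to set beside the counts here. Endothelial markers had medians of 0.96 and 1.01 over 10 measured, and the 4 that were tested were H3ac-high. Egfl7, an endothelial secreted protein, had H3ac at 453 and 536 and K27me2 at 61.5 and 64.4, and Pecam1, an endothelial adhesion molecule, had H3ac at 881 and 1306 and K27me2 at 124 and 163. Of the 6 not tested, Emcn, endomucin, had differences of -0.46 and -1.57, Tie1 0.66 and -0.54 and Vwf 0.26 and -0.65. Of 6 tested macrophage and leukocyte markers 4 were H3ac-high, with Cd68 at 2.11 and 2.67 and Cd14 at 2.28 and 2.11, while the median of all 16 measured was -0.29 and 0.35, and its mean over the hearts turned negative after centring on pre-IP level. Cd8a, of T cells, was not tested at -2.80 and -2.11. Fibroblast markers had medians of -0.31 and 0.28. Tcf21, a transcription factor of cardiac fibroblasts, was H3ac-high with 1.94 and 3.04, and Ddr2, a collagen receptor, had -1.11 and -0.14 without a test. Extracellular matrix genes gave 4 H3ac-high genes and 1 K27me2-high gene of 18 tested, both below the shares of all tested genes. The counts turned to 2 and 5 of 18 both with the deposited scaling and after quantile normalization. The counts of all tested genes turned under these scalings too, to 1462 and 1692 of 7083 and to 1414 and 1503 of 7066. Sparc, a matrix glycoprotein, had H3ac at 731 and 689 and K27me2 at 125 and 162, while Fn1, fibronectin, had -1.20 and -1.44 and was not tested. Smooth muscle markers had 1 H3ac-high gene of 3 tested, near the share of all tested genes. Their medians of 0.28 and 0.34 turned negative after quantile normalization and after centring on pre-IP level. Adipocyte markers had medians of -0.30 and -0.24, positive after that centring, with Fabp4, a fatty acid binding protein, H3ac-high at 1.35 and 1.82.

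The difference was then set against the mRNA level of the same heart. Genes were placed in 10 groups by mRNA level, and the median difference rose from -0.64 in the lowest group to 0.51 in the highest in the normal heart, and from -0.58 to 0.51 in the failed heart. Among tested genes of the normal heart, the share that was H3ac-high rose from 18.7% to 47.0% between these groups and the share that was K27me2-high fell from 21.3% to 5.29%. Each mark moved over these groups: H3ac minus pre-IP went from -0.31 to 0.18 and K27me2 minus pre-IP from 0.26 to -0.35 in the normal heart. H3ac levelled off from the middle groups on, while K27me2 went on falling to the highest group. Over 14217 genes Spearman's rho of the difference with mRNA came to 0.29 and 0.28. The mRNA of the other heart gave 0.28 and 0.29, so the relation did not single out the heart of origin. Within 3 equal groups by pre-IP level rho ran from 0.19 to 0.29 in both hearts together. Probe sets differ in their response, so mRNA levels of different genes are compared here only as ranks, and the points share probes on all arrays.

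**Figure D3:**
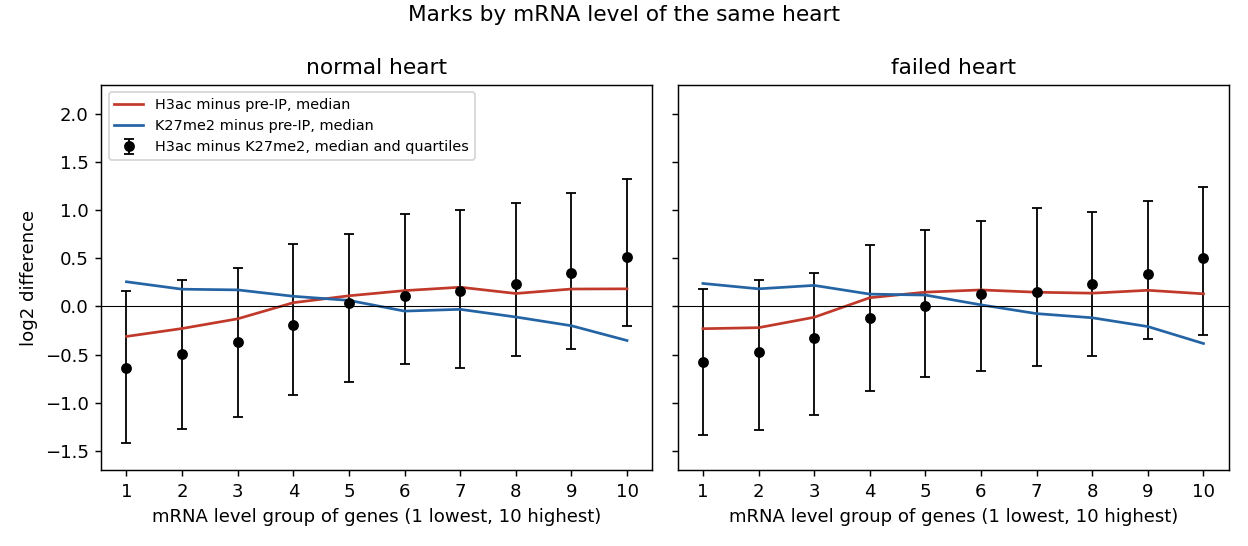
Genes in 10 groups by mRNA level of the same heart (horizontal) against log2 differences (vertical): black points and bars are the median and quartiles of H3ac minus K27me2, red lines the median of H3ac minus pre-IP, blue lines that of K27me2 minus pre-IP. The medians rise from -0.64 to 0.51 in the normal heart and from -0.58 to 0.51 in the failed heart, with quartiles that overlap between neighbouring groups.

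The classes differed in mRNA accordingly. H3ac-high genes had a median mRNA percentile of 64.5 and 63.7, and K27me2-high genes of 40.3 and 38.6. In the normal heart 30.8% of H3ac-high genes lay in the top 20% of mRNA and 9.32% in the bottom 20%, while for K27me2-high genes these shares were 12.2% and 28.6%. Some genes crossed this pattern. The 5 K27me2-high genes with most mRNA were Rpl19, Hspd1, Clic2, Hmgn3 and Eloc. Rpl19, of the large ribosomal subunit, had mRNA at 11654 and 23134 with K27me2 at 3085 and 2841 and H3ac at 1168 and 1198. Hspd1, the mitochondrial chaperonin, had mRNA at 2614 and 7196, K27me2 at 1008 and 948 and H3ac at 440.3 and 309. The pre-IP levels of Rpl19, Hspd1 and Eloc were high: Rpl19 had 2449 and 2435, Hspd1 887 and 997 and Eloc, elongin C, 2998 and 2696. Near-identical copies of Rpl19 and Hspd1 occur elsewhere in mammalian genomes, and their part was not tested. Clic2, an intracellular chloride channel protein, and Hmgn3, a nucleosome-binding protein, did not share this: Clic2 had pre-IP at 312 and 185 with differences of -1.37 and -1.07, and Hmgn3 had pre-IP at 117 and 68.2 with -1.24 and -1.15.

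At the opposite corner, 140 tested genes had mRNA at or under the floor of 10 in both hearts. Of these 22 were H3ac-high and 34 K27me2-high, beside 33.8% and 11.0% of all tested genes. Among these H3ac-high genes 14 were at least 2-fold in both hearts and above the floor in both marks; they tie in mRNA, and the 5 described here come first in alphabetical order. Fam162a, a mitochondrial protein, had H3ac at 3662 and 3694 and K27me2 at 329 and 318. Endog, mitochondrial endonuclease G, had H3ac at 2467 and 1928 and K27me2 at 459 and 374, and Edem3, a mannosidase of protein quality control, had differences of 2.17 and 2.67. Dnah2, a dynein heavy chain of cilia, had 1.41 and 1.39 and Foxr1, a forkhead factor, 1.26 and 1.69. Dnah2 was not called after quantile normalization (limma adjusted p = 0.0858). A probe set that responds weakly to its RNA would give such values too, which was not tested.

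The other 6 marks took no part in choosing the classes, and their medians differed between the classes in both hearts, by unequal amounts. The normal heart's H4 acetylation array carries labels that disagree: its title and description name the antibody, while its source is given as DNA from before immunoprecipitation. It was used as titled, and its values hold only if the title is right. H4 acetylation minus pre-IP had a median of 0.68 and 0.56 at H3ac-high genes and -0.20 and -0.28 at K27me2-high genes. Dimethylated lysine 4, a mark of promoters and enhancers, had 0.98 and 1.09 against -0.41 and -0.17. Dimethylated lysine 9, a mark of silent chromatin, went the other way, with -0.74 and -0.76 against 0.20 and 0.40. Trimethylated lysine 20, a mark of constitutive heterochromatin, did too, with -0.50 and -0.59 against 0.29 and 0.35. Trimethylated lysine 9 had -0.24 and -0.42 against 0.081 and 0.026. The genes not called had 0.033 for it in the failed heart, so K27me2-high genes were not above these there. Trimethylated lysine 4, a mark of active promoters, separated the classes least in the failed heart, with 0.24 and 0.0036 against -0.20 and -0.11. The genes not called had 0.028 for it in the failed heart, so H3ac-high genes were not above these there. Replacing H3ac by H4 acetylation in the difference gave a rho with mRNA of 0.35 and 0.39, against 0.29 and 0.28 for H3ac. Replacing K27me2 by trimethylated lysine 20 gave 0.25 and 0.23. The pre-IP level, which is subtracted in all these values, differed between the classes too, with a median log2 of 7.63 and 7.74 against 7.40 and 7.29. In the failed heart this gap was about as large as that of trimethylated lysine 9 and larger than that of trimethylated lysine 4, and its part was not tested. These values come from 1 array a mark and heart and carry no test.

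**Figure D4:**
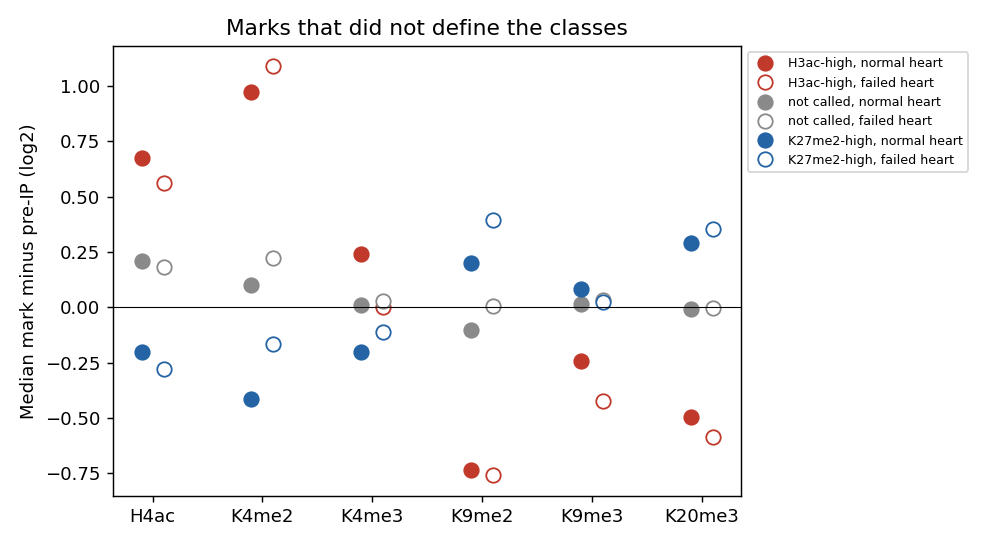
Median of each of 6 other marks minus pre-IP (log2, vertical) in H3ac-high genes (red), genes not called (grey) and K27me2-high genes (blue), with filled circles for the normal and open circles for the failed heart. H4ac and K4me2 are highest at H3ac-high genes, K9me2 and K20me3 at K27me2-high genes, and the classes lie closest for K4me3 in the failed heart.

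A second probe set of the same gene gave a check that the calls did not use. Of 539 H3ac-high genes with another probe set that passed the level filter, 476 read above 0 in both hearts and 22 below 0 in both. Of 107 K27me2-high genes with one, 70 read below 0 in both hearts and 21 above. Among the 814 genes not called, 407 read above and 203 below. The Spearman correlation between the probe sets of a gene was 0.55 and 0.49 over 4525 genes. These counts carry no test, and Nfatc4 is an example of disagreement. This gene, a calcineurin-dependent factor chosen after its values were seen, was H3ac-high at 1.31 and 0.79 while its second probe set read -3.18 and -1.93.

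Position and length of the gene went with the difference as well. Genes next to each other in the gene table, which follows the GRCr8 assembly, had a rho of 0.36 and 0.31 over 9987 pairs, against 0.12 for the pre-IP level. It fell to 0.18 and 0.16 for genes 10 places apart. Pairs whose symbols start with other letters, which leaves out most tandem gene families, gave 0.35 and 0.30. Shorter genes had higher differences, with a rho of -0.29 and -0.27 over 13878 genes with a length. Among the shortest of 5 equal groups 51.9% of tested genes were H3ac-high and 4.91% K27me2-high, and among the longest 16.7% and 21.1%. Long genes among the extremes are Dgkb, Prkca and Erbb4 on the K27me2 side. The probes of such arrays lie mostly toward the 3′ end of the RNA, so their distance from the start grows with gene length; probe positions were not used and the part of distance was not tested. The relation to mRNA was present within groups by length, with a rho of 0.45 and 0.44 in the shortest group and 0.32 and 0.26 in the longest.

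By chromosome, genes of chromosome 10 had the highest medians, 0.47 and 0.39, with 42.5% of tested genes H3ac-high and 4.43% K27me2-high. Chromosome 18 had 16.8% and 23.1%. The median gene length was 16032 bases on chromosome 10 and 33398 bases on chromosome 18, so chromosome and length go together here. Genes of the X chromosome had a median log2 pre-IP level of 5.57 against 6.61 for all genes, and 14.2% of them were tested.

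Promoter sequence was examined for CpG, the dinucleotide CG, which reads the same on both strands. The RefSeq promoter table (GRCr8) gave the window from 250 bases before to 50 bases after the start for 11700 of the 14217 genes. The count of CG had a rho with the difference of 0.15 and 0.15 across genes, and one of 0.28 and 0.28 with mRNA. H3ac-high genes had a median of 21 CG per window of 300 bases and K27me2-high genes 17, against 19 for all genes with a window. At least 10 CG were held by 81.7% of the H3ac-high windows, 69.7% of the K27me2-high windows, 74.1% of the windows of all measured genes, and 44.1% of all 27457 windows of the table. Genes with 0 to 2 CG had median differences of -0.69 and -0.57, and genes with over 20 had 0.15 and 0.15. The windows of the extreme genes that the table holds show how far the ranges overlap; Ier3 has no entry. They are given 5′ to 3′ with each CG in capitals, for Zbtb22 (chr20:4971332-4971631, minus strand, 18 CG), Midn (chr7:10206955-10207254, minus strand, 32 CG), Dgkb (chr6:60368338-60368637, plus strand, 8 CG) and Nme7 (chr13:79190331-79190630, plus strand, 18 CG).
Zbtb22: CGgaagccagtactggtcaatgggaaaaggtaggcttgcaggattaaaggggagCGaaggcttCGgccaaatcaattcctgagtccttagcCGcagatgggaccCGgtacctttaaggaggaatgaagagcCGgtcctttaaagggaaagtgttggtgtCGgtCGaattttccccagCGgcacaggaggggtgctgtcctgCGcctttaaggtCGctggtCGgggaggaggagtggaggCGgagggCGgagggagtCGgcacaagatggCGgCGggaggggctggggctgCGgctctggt
Midn: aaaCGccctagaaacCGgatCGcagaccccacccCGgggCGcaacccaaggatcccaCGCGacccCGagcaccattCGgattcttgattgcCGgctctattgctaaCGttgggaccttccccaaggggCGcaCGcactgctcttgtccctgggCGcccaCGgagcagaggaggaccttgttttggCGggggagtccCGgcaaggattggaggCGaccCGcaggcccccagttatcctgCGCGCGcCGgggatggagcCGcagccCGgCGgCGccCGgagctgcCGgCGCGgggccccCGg
Dgkb: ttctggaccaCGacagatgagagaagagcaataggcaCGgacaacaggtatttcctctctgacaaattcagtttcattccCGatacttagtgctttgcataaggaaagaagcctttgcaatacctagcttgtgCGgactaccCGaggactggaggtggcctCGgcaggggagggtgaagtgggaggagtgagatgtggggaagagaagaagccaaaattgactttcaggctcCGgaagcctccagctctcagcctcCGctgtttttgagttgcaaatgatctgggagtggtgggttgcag
Nme7: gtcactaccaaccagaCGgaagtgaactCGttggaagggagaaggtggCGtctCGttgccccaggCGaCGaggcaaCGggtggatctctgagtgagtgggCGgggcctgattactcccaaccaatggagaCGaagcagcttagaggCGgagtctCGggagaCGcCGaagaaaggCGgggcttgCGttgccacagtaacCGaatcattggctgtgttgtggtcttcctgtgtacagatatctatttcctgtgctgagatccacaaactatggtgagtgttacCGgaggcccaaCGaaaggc
Zbtb22 and Nme7, at opposite ends of the difference, hold the same number of CG in this window.

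The last comparison was between the hearts. With 1 array for each mark and heart, a change in the difference from one heart to the other has no replicate error and was not tested. Cardiomyocyte markers had a median of 2.37 (normal) and 1.15 (failed) over 10 genes, with 7 of 10 lower in the failed heart, while the median change over all genes was -0.0047. Mb, myoglobin, had H3ac at 538 and 347 and K27me2 at 47.0 and 151, so its difference went from 3.52 to 1.20. Myh7, the slow myosin heavy chain, had H3ac at 959 and 118 and K27me2 at 60.1 and 46.8, and its mRNA was higher in the failed heart by 1.61 on the log2 scale. At these probe sets the value of Myh7 thus moved through H3ac and that of Mb through both marks. The second probe set of Myh7 read 2.72 and 1.97, lower in the failed heart as well but by less. Atp2a2, the calcium pump, had differences of 2.87 and 0.92 with an mRNA change of 0.74, and Nppb, a natriuretic peptide, 2.28 and 0.73 with 2.46. The other probe sets of Atp2a2 did not all read a lower difference in the failed heart: they gave 2.08 and 1.24, 2.31 and 2.35, 1.11 and 1.70, and 3.31 and 3.24. Nppa, the atrial natriuretic peptide, had differences of 0.40 and 0.73 with an mRNA change of 4.30. Over the cardiomyocyte markers the median mRNA change was 0.60, against 0.15 for all genes, so their mRNA was not lower as a group.

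Myh6, the fast myosin heavy chain, went from 2.54 to -0.45, but its K27me2 level in the normal heart was under the floor and the probe set was not tested. Fibroblast markers moved the other way, higher in the failed heart at 9 of 10 genes, beside 7052 of all 14217 genes. Their median change was 0.90, in company with a median mRNA change of 0.93. Only 4 of these 10 markers reached the level for the test. Col1a2 had K27me2 at 205 and 56.1 and H3ac at 68.8 and 54.6, and Vim, vimentin, chosen after its values were seen, had differences of -0.036 and 1.03. Col1a2 was not tested, and its differences were -1.58 and -0.040 here but -0.34 and -0.099 at its second probe set. The share of cell types in the specimens is one of the quantities that these bulk values hold, and its part was not tested. Across all genes the change in the difference had a rho of 0.010 with the change in mRNA, and 0.015 over 5075 tested genes with mRNA at or above the median.

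**Figure D5:**
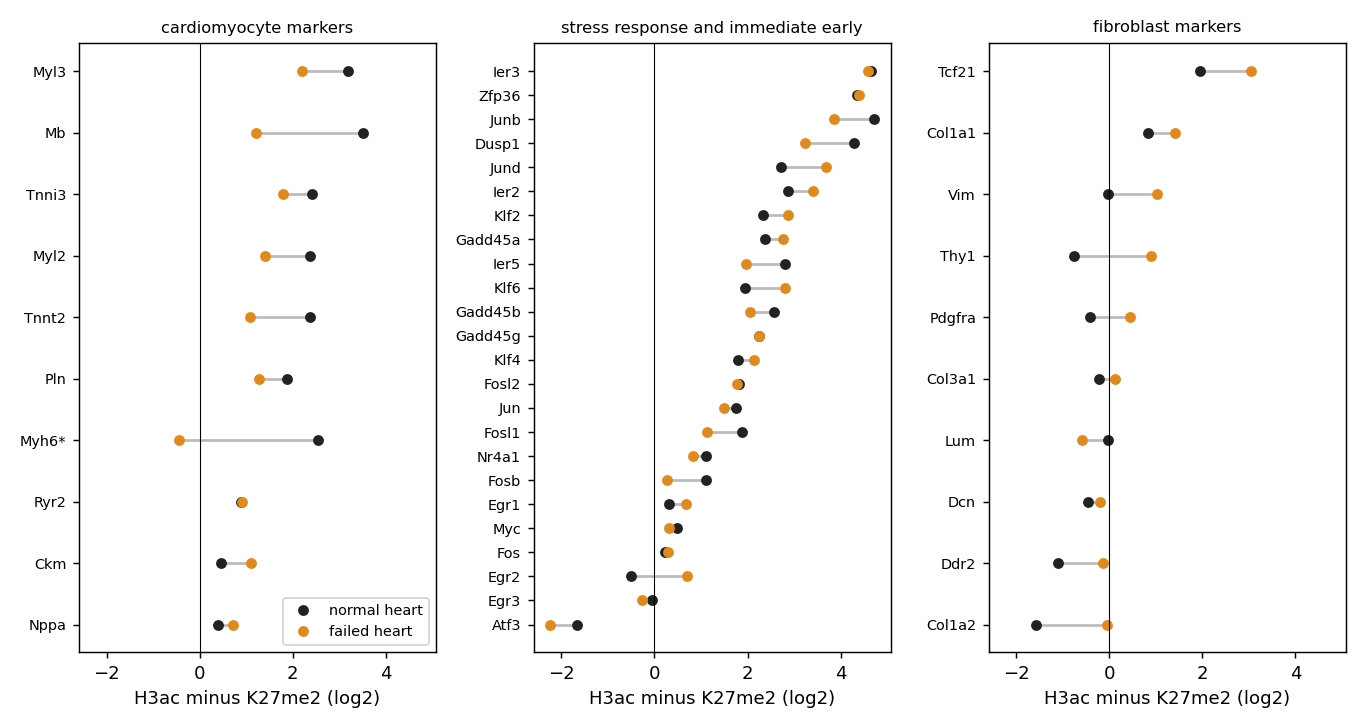
Log2 difference of H3ac minus K27me2 of each measured cardiomyocyte marker, stress response or immediate early gene, and fibroblast marker in the normal heart (black) and the failed heart (orange). Most cardiomyocyte markers lie lower and most fibroblast markers higher in the failed heart, while the stress genes show no shared direction; Myh6, with an asterisk, has a value at the floor.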

How the data were processed

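The authors deposited linear intensity values, 1 for each of 31099 probe sets of the Affymetrix Rat Genome 230 2.0 array; every array has a mean of about 500.1 after 2% is trimmed at each end, read from the values. The tool behind them and the genome build are not given in the sources used here. Per the labels' protocols, T7 transcription was used to amplify the fragmented DNA before labelling. Array medians as deposited were 287 and 283 for H3ac and 400.2 and 402.5 for K27me2. Arrays give no counts, so their number limits the precision.

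Arrays were scaled to a median of 100 and floored at 10 before log2 was taken; 2.13% to 6.07% of probe sets of the 4 arrays were at the floor. The annotation gave 20826 probe sets 1 gene and 436 several, and did not list 9780; 20758 were matched to the gene table and 0 renamed. The probe set with most mRNA stood for a gene, giving 14217 genes. Tests used limma 3.58.1 in R 4.3.3 (lmFit, then eBayes with a trend) on mark and heart, with Benjamini-Hochberg adjustment over the 7083 tested genes, and the script was tested on simulated data. Nothing states that arrays come from separate animals, so p-values measure only the spread between these hearts. The labels number no replicates.

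The members, gene lists and tests were chosen with earlier results of these data known. Named genes are the 12 largest differences each way among called genes at least 2-fold in both hearts, the 5 K27me2-high genes with most and the 5 H3ac-high genes with least mRNA, the 2 highest and 2 lowest members of a list above the floor, and 24 preset genes, 21 of them measured. Other named genes were chosen after their values were seen. Lists with no call (red blood cell, atrial and skeletal muscle markers) had medians of 0.027 and -1.22, 0.49 and -0.28, and -0.51 and -0.47; proteasome subunits had 0.30 and 0.68 with 7 and 0 called of 19, and translation factors 0.11 and 0.055 with 7 and 2 of 33. Hypertrophy genes gave 4 and 0 called of 7, and chemokine, interleukin and receptor genes 9 and 4 of 42, which turned to 2 and 14 of 42 with the deposited scaling and 5 and 14 of 43 after quantile normalization. All tested genes turned as well under these scalings, to 1462 and 1692 of 7083 and to 1414 and 1503 of 7066. Without these scalings 33.8% of all tested genes were H3ac-high and 11.0% K27me2-high, to set beside the first counts of each list. Translation factors and chemokine, interleukin and receptor genes lay below this H3ac-high share. Proteasome subunits lay near it and hypertrophy genes above it. Alternatives covered scaling, floor, filter, probe set choice, the block, the trend, each heart alone, and centring on pre-IP level and leaving out genes at the floor, the last pair added after the data were seen.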

Additional observations from a re-analysis of the deposited data

Results flagged for a closer look

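At 6 lists and several genes the hearts lay on opposite sides of 0. None of these differences between the hearts was tested, since each heart has 1 array a mark, and median values near 0 change side easily. Values are given as normal heart, then failed heart.

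Medians of lists were 0.26 and -0.076 for fatty acid oxidation, -0.19 and 0.077 for other developmental regulators, -0.31 and 0.28 for fibroblast markers, and -0.29 and 0.35 for macrophage and leukocyte markers. Red blood cell markers had 0.027 and -1.22, lower in the failed heart at 5 of 5 genes, and atrial muscle markers had 0.49 and -0.28.

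Genes of muscle and blood made up much of the rest. Csrp3, a muscle LIM protein, had 0.24 and -0.088, Tnnc2, fast skeletal troponin C, 0.52 and -0.23, and Sln, sarcolipin, 0.62 and -0.29. Of the atrial light chains, Myl4 had 0.21 and -0.27 and Myl7 0.57 and -2.33. Myh6 had 2.54 and -0.45, with a value at the floor. Hbb, a globin chain, had 0.75 and -0.39, and Slc4a1, the anion exchanger of red cells, 0.73 and -1.22. Vwf, von Willebrand factor, had 0.26 and -0.65. Plin1, of fat droplets, had -0.30 and 0.21, Lhb, of the pituitary, 0.93 and -0.35, Sox2, a stem cell factor, -0.029 and 0.66, and Tas2r121, a taste receptor, 2.10 and -0.80.

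The 6 tested genes at least 2-fold apart on opposite sides were Hsd17b13 at -1.17 and 1.87, Kyat1 at 1.39 and -1.40, Mtus2 at -1.01 and 1.62, Orc2 at -1.03 and 1.20, Ptafr at -1.02 and 1.09 and Sfswap at -1.51 and 1.36. At Mtus2, Ptafr and Sfswap, a second probe set read below 0 in both hearts, at -0.063 and -1.24 for Mtus2, -0.89 and -0.51 for Ptafr and -0.82 and -0.27 for Sfswap, whose last probe set read 0.20 and 0.35.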

How the results depend on the processing

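The split between the classes depended on the scaling most. With the values as deposited 1462 genes were H3ac-high and 1692 K27me2-high, and 848 and 911 were at least 2-fold in both hearts. Quantile normalization gave 1414 and 1503, with 838 and 824 at least 2-fold. Centring on pre-IP level gave 1741 and 1268, with 1010 and 653. No filter gave 2639 H3ac-high and 2032 K27me2-high genes, with 1590 at least 2-fold toward K27me2, and a filter on pre-IP level 514 at least 2-fold. With 1 heart alone the K27me2 count at 2-fold was 776 without the failed heart and 624 without the normal heart, and the H3ac count 2119 and 2101. A test with 1 heart was not run, as it has no residual degrees of freedom. Without the block for the pairing by heart, 2139 and 624 genes were called, and floors of 50 and 1, the mean of all probe sets and eBayes without a trend kept both counts of calls within 1.5 times. Depth cannot be judged on arrays, and values near the floor limit the lowly measured lists.

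The Spearman correlation with mRNA was 0.25 and 0.26 after quantile normalization, 0.25 and 0.24 with a floor of 50, 0.23 and 0.24 under the pre-IP filter, 0.24 and 0.22 after centring, and 0.26 and 0.26 over genes above the floor on all 4 arrays.

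Of 37 lists, 27 kept the sign of their median, less that of all genes and as a mean of both hearts, under every setting tried on lists. Changes of the filter, block and trend were not among these. In a single heart some of these lists changed sign, such as calcium handling genes in the failed heart, from -0.29 to 0.50. Medians of lists are given here less that of all genes, as a mean of both hearts. After quantile normalization they were 0.98 for sarcomere genes, 1.06 for cardiac transcription factors, 0.86 for the respiratory chain, 0.57 for glycolysis, -0.55 for cytosolic ribosomal proteins, 1.40 for stress genes, 0.27 for heat shock genes, -0.24 for other neuronal genes, -0.93 for sensory receptors, 1.36 for cardiomyocyte markers, -0.28 for smooth muscle markers and -0.62 for red blood cell markers. After centring on pre-IP level they were 0.29 for sarcomere, 0.59 for hypertrophy and 0.16 for calcium handling genes, 0.64 for the respiratory chain, -0.13 for fatty acid oxidation, 0.40 for glycolysis, -0.67 for cytosolic ribosomal proteins, 1.27 for stress and 0.29 for heat shock genes, -0.96 for sensory receptors, 0.85 for cardiomyocyte, -0.32 for smooth muscle, -0.033 for macrophage and leukocyte and 0.12 for adipocyte markers. With a floor of 50 they were 0.60 for hypertrophy genes, 0.097 for homeobox, Pax and Sox genes, -0.26 for P450 genes, -0.21 for neurotransmitter receptors, -0.11 for other neuronal genes, -0.084 for sensory receptors, -0.57 for pancreas, gut and pituitary genes and 0.0 for zinc fingers. A floor of 1 gave -1.71 for sensory receptors and 1.57 for endothelial markers, which had 1.34 with the mean of all probe sets and 1.38 above the floor; calcium handling had 0.20 with that mean.

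Among named genes Rpl37a turned to -0.12 after quantile normalization, and Gata2 and Ryr2 turned to -0.20 and -0.49 after centring. The cause was not tested in any of these cases.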
